A study of Mus musculus with 22 samples.

Results

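The MyD88 signaling complex and the brake on it, Irak3, were followed through the H3K27ac landscape of Kupffer cells, which are macrophages that reside in liver sinusoids. The members were 9 genes: Irak3, Irak4, Irak2, Myd88, Tirap, Ticam1, Ticam2, Traf6 and Tollip. A window belonged to a gene when the file annotated that gene as the nearest transcription start site. This rule gave 67 of the 96381 windows of 1000 bp counted in the parental strains and 125 of the 217456 regions of 200 bp counted in the F1 hybrids. H3K27ac ChIP–seq had been done on Kupffer cells sorted from untreated male mice of 3 inbred strains (C57BL/6J, BALB/cJ and A/J; 3 libraries each) and of CB6F1/J hybrids of BALB/cJ females and C57BL/6J males, also with 3 libraries. The cells were gated as live, CD45-positive, F4/80-high and CD146-negative singlets. The study's methods describe young adult mice, and the labels give no age per sample. The labels do not say whether a library came from 1 mouse or from pooled mice, so p-values measure the spread between these libraries. ChIP input was counted in 7 parental libraries.

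Toll-like receptors and the IL-1 receptor family signal through TIR domain adaptors. MyD88 gathers IRAK4 and IRAK2 into an oligomer, the Myddosome, and the signal passes through TRAF6 to NF-κB and MAP kinases. Kupffer cells meet microbial products that drain from the gut, and IRAK3, also called IRAK-M, is a pseudokinase of monocytes and macrophages that restrains this signal and is associated with endotoxin tolerance. Acetylation of histone H3 at lysine 27 marks active promoters and enhancers.

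Tags within windows numbered 2291426 to 12980348 per parental library, and replicate 2 was the shallowest library of each strain. All 11 Kupffer cell markers checked, including Clec4f, Timd4 and Vsig4, had a window over the filter for low counts, which was a mean normalized count over 16. The median of their highest windows was 313 normalized tags. The 7 lists for other liver and blood cells had medians from 25.2 (hepatocyte, 4 of 7 genes with a window) to 142.5 (monocyte and neutrophil, 5 of 6). Single markers in those lists exceeded the Kupffer cell median, namely Ly6c2 (617), Csf3r (423) and Pecam1 (381). The highest Kupffer cell marker was Timd4 (418), so the lists do not separate cleanly. Of the 6 stellate cell markers, 2 had a window. Their summed level was 111 to 193 in C57BL/6J, 23.9 to 38.6 in A/J and 16.8 to 33.8 in BALB/cJ, almost all of it at Pdgfrb, while Dcn, Lrat, Col3a1 and Des had none. Its part in the results below was not tested.

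Irak3 had 12 windows, at the promoter and in introns of a gene of 60483 bp on the minus strand of chromosome 10 (chr10:120141648-120202130, mm10). Distances are to the nearest annotated start, and Irak3 has more than 1. The windows at -2710 and -346 bp are counted from the upstream end of the gene (120202130). All other Irak3 windows are counted from a start further inside it. C57BL/6J had the highest mean of the 3 strains in 11 of the 12 windows, while it was highest in 34.9% of all 96381 windows. The exception was the intergenic window at -2710 bp, where no strain's mean exceeded 5.36 normalized tags. At 7 of the 12 windows no library of BALB/cJ reached the lowest library of C57BL/6J (21.5% of all windows did not overlap in that comparison), and at 5 of 12 none of A/J did (19.3%). Several of the 12 windows overlap each other and share tags, and Irak3 was an example that the study itself picked from these libraries, so its direction is not independent evidence. In a bulk profile, fewer acetylated cells and less acetylation per cell cannot be told apart.

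**Figure D1:**
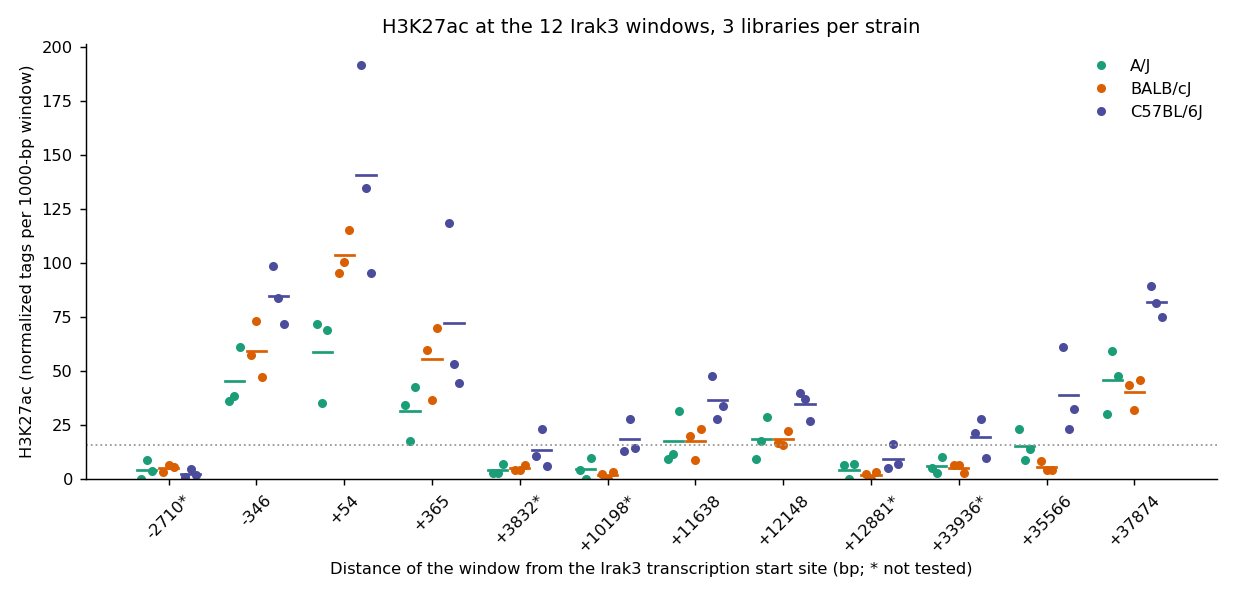
Normalized H3K27ac tags (y axis) at each of the 12 Irak3 windows, ordered by distance from the nearest annotated transcription start site (x axis). The negative distances are counted from a start upstream of that used for the positive ones. Points are libraries, short lines are strain means, and the dotted line is the filter of 16. The C57BL/6J mean is the highest at 11 of the 12 windows, from 141 at the start to 9.52 at +12881 bp.

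Of the 12 windows, 7 passed the filter and entered the test, an edgeR quasi-likelihood fit of all 9 libraries with Benjamini-Hochberg adjustment over 60387 windows. Calls needed an adjusted p below 0.05 together with a log2 fold change beyond 1 in either direction. Because a window can pass the filter through the strain in which it is high, the values of the 5 windows that did not pass are given as well. The 9 genes had 0 calls for A/J against BALB/cJ (3.63% of all tested windows were called), 1 for A/J against C57BL/6J (7.09%, and 3.93% lower in A/J as here) and 2 for BALB/cJ against C57BL/6J (8.56%, and 4.1% lower in BALB/cJ as here). At any fold, 0, 1 and 4 member windows had an adjusted p below 0.05 (4.02%, 8.35% and 10.8% of all). A block for the replicate number gave 1, 4 and 2 calls (5.39%, 8.91% and 10.5% of all). Of the 55 member windows tested, 5, 6 and 11 had an unadjusted p under 0.05 in these comparisons (14.1%, 19.3% and 22.3% of all tested windows). The DESeq2 Wald test also called 0 between A/J and BALB/cJ. All shares of called member windows lay below those of all windows, and Irak3 carried 2 of the 3 calls. Libraries of the 2 strains did not overlap at 6, 5 and 12 of the 55 tested member windows in these comparisons. The shares of all tested windows were 19.1%, 22% and 24.9%.

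The Irak3 promoter was called between A/J and C57BL/6J. The window 54 bp from the start (chr10:120201043-120202043) held 72.1, 35.6 and 69.2 normalized tags in A/J, 95.4, 101 and 115 in BALB/cJ and 192, 135 and 95.7 in C57BL/6J. All 3 A/J libraries lay below all 6 others, and BALB/cJ and C57BL/6J overlapped. A/J was 2.23-fold lower than C57BL/6J (log2 fold change -1.16 ± 0.28 SE, adjusted p = 0.00753), whereas A/J against BALB/cJ gave -0.73 ± 0.28 (adjusted p = 0.184) and BALB/cJ against C57BL/6J gave -0.42 ± 0.27 (adjusted p = 0.398). With the replicate block, A/J against BALB/cJ gave -0.74 (adjusted p = 0.0241), under the fold threshold. The promoter call rested on 2 libraries. Without C57BL/6J replicate 1 the difference was -0.85 (adjusted p = 0.11), and without A/J replicate 2 it was -0.98 (adjusted p = 0.0278), under the fold threshold. ChIP input, as counts scaled by library total (CPM), was 14 CPM for A/J, 11.3 for BALB/cJ and 11.1 for C57BL/6J at this window.

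The RefSeq promoter that matches this start is shown because the call lies on it (chr10:120201548-120201847, mm10, minus strand, 250 bases before the start to 50 after). Capitals mark the only match of 8 motifs searched on both strands, which were PU.1 (GAGGAAGT), AP-1 (TGANTCA), IRF by name, C/EBP (TTGCNNAA), CRE (TGACGTCA), E-box (CACGTG), MAF (TGCTGAC) and NF-κB by name. The E-box was added to the search after the sequence had been read. It starts at base 256 and is found in 7.15% of 32851 promoters of this length.
Irak3 promoter: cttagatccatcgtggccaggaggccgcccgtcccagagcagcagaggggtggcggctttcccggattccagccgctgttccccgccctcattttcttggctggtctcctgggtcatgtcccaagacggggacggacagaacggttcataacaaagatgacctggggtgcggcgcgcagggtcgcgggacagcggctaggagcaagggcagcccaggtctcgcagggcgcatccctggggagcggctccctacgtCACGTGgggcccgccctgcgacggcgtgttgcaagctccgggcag

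The 2 windows beside it overlap the promoter window in part. At -346 bp, A/J held 36.1, 38.6 and 61.4 normalized tags, BALB/cJ 57.4, 73.2 and 47.5, and C57BL/6J 98.6, 83.8 and 71.8. At +365 bp in intron 1, the values were 34.6, 17.8 and 42.7 in A/J, 59.9, 36.6 and 70.1 in BALB/cJ and 119, 53.6 and 44.7 in C57BL/6J. A/J lay below C57BL/6J in every library of both windows. The log2 fold changes of -0.85 ± 0.28 and -1.05 ± 0.36 had adjusted p-values of 0.0678 and 0.0756. Single libraries decided these too, since -346 bp was called without A/J replicate 3 (-1.18, adjusted p = 0.0323) and +365 bp without C57BL/6J replicate 2 (-1.18, adjusted p = 0.0477) or replicate 3 (-1.36, adjusted p = 0.0374). Other omissions weakened them. The difference at -346 bp was -0.67 without A/J replicate 1 (adjusted p = 0.299), and at +365 bp it was -0.49 without C57BL/6J replicate 1 (adjusted p = 0.588). Under that block, the window at +365 bp was called between A/J and C57BL/6J (-1.04, adjusted p = 0.00502).

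Among the tested windows of the complex, the largest difference was in intron 7 of 11, at +35566 bp (chr10:120165531-120166531). Here C57BL/6J held 61.3, 23.3 and 32.7 normalized tags, A/J 23.6, 8.90 and 14.2, and BALB/cJ 8.44, 4.58 and 4.38. BALB/cJ lay below every library of both other strains, and A/J and C57BL/6J overlapped by 1 library each. BALB/cJ was 6.5-fold lower than C57BL/6J (log2 fold change -2.70 ± 0.49, edgeR adjusted p = 0.000335). A/J stood between them, with -1.22 ± 0.42 against C57BL/6J (adjusted p = 0.0753) and 1.48 ± 0.52 against BALB/cJ (adjusted p = 0.13). The block for the replicate number called both of these (adjusted p = 0.00517 and 0.0226). The means of A/J (15.6) and BALB/cJ (5.8) were both under the filter, which the window passed through C57BL/6J, and a fit of these 2 strains only did not test it. Without C57BL/6J replicate 2, A/J against C57BL/6J was also called (-1.42, adjusted p = 0.0321), while without A/J replicate 3 it was weaker (-1.07, adjusted p = 0.266). The BALB/cJ call held under all 12 alternatives in which the window was tested. It was not tested without C57BL/6J replicate 1, where its mean fell under the filter.

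Input at this window was 6.79 CPM for A/J (24 tags), 5.82 for BALB/cJ (16 tags) and 3.43 for C57BL/6J (2 tags, 1 library). These values rest on few tags, and the part of mapping in the difference was not tested. Repeats take up 31.7% of the window in the reference, and 16.1% of all windows have more (median 14.9%). The central 300 bases are shown as the site of that difference (chr10:120165881-120166180, mm10, minus strand, the strand of the gene). None of the 8 motifs was found in them, and in 96238 window centers of this length the shares with a match ran from 0.988% for CRE to 17.1% for AP-1.
Irak3 intron 7 center: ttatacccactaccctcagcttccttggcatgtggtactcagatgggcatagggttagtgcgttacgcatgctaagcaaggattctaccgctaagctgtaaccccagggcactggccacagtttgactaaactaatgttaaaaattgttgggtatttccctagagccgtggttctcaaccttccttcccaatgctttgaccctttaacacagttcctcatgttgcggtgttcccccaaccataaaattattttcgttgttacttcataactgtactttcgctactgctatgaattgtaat

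The window at +37874 bp in intron 8, next to the intron 7 window, held 30.2, 59.3 and 47.9 normalized tags in A/J, 43.9, 32.0 and 46.0 in BALB/cJ and 89.3, 81.5 and 74.9 in C57BL/6J. C57BL/6J lay above every library of both other strains. BALB/cJ differed from C57BL/6J in the test but under the fold threshold (-0.96 ± 0.28, adjusted p = 0.0279), and A/J gave -0.91 ± 0.29 (adjusted p = 0.0502), which became a call without A/J replicate 2 (-1.05, adjusted p = 0.0261). The A/J difference shrank to -0.65 without A/J replicate 1 (adjusted p = 0.3055).

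In intron 1, the overlapping windows at +11638 and +12148 bp had C57BL/6J means of 36.6 and 34.8 normalized tags. Their A/J means were 17.7 and 18.8 and their BALB/cJ means 17.6 and 18.5. At +11638 bp the A/J libraries held 9.57, 11.9 and 31.7, so that replicate 3 reached into the range of C57BL/6J. Neither window was called. The adjusted p-values against C57BL/6J ran from 0.174 to 0.27, and the block called the first between A/J and C57BL/6J (-1.03, adjusted p = 0.0376). Without A/J replicate 3 it was also called, at -1.83 (adjusted p = 0.0296), while without A/J replicate 1 it was -0.57 (adjusted p = 0.634).

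The windows under the filter were weak in A/J and BALB/cJ. In C57BL/6J the means at +10198 and +33936 bp were 18.6 and 19.8, above 16, but the mean of the 9 libraries was not. At +10198 bp, C57BL/6J held 13.3, 27.9 and 14.5 normalized tags, against 4.42, 0 and 9.70 in A/J and 2.53, 0 and 3.65 in BALB/cJ. At +33936 bp in intron 6, C57BL/6J held 21.3, 27.9 and 10.1, against at most 10.3 in A/J and 6.87 in BALB/cJ. These 2 had C57BL/6J as the highest strain by the widest margins. At +3832 bp the strain means were 4.34 (A/J), 5.12 (BALB/cJ) and 13.4 (C57BL/6J), and at +12881 bp they were 4.58, 2.06 and 9.52. At -2710 bp they were 4.26, 5.36 and 2.63. The mean of the 9 libraries was 4.08 to 10.5 in these 5 windows, and differences of this size rest on few tags.

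The deposited windows also record which ATAC-seq peak lists, a readout of accessibility, each was built from. Because the lists defined the windows, membership is not an independent measurement. Irak3 was in the A/J control list at 4 of 12 windows, in the BALB/cJ control list at 8 and in the C57BL/6J control list at 9. Over all windows the shares were 59.4%, 82.2% and 64.2%. The lists of C57BL/6J and BALB/cJ after lipopolysaccharide (LPS) held 11 and 7 of the 12 Irak3 windows, beside 64.4% and 58.8% of all windows. Intron 7 (+35566 bp), intron 8, the promoter and -346 bp were in all 5 lists, as were 39.7% of all windows. Thus the intron 7 window was an accessible site in BALB/cJ although its H3K27ac was at 4.38 to 8.44. The window at +10198 bp was in C57BL/6J lists alone, and 3 windows (-2710, +365 and +12881 bp) were in LPS lists alone (11% of all windows). These are presence calls without a signal value, and no test was made on them.

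Windows of other genes were compared with the intron 7 profile over the 9 parental libraries, without members. The 5 genes with the highest Pearson correlation of log2 (normalized tags + 1) were Capzb (r = 0.986), Ubr4 (0.963), Lgmn (0.962), Marco (0.959) and Tmem37 (0.958). Their windows had the same order of strain means, with BALB/cJ lowest and C57BL/6J highest, which follows from picking them by this correlation. Marco, a scavenger receptor of Kupffer cells, averaged 26.6 (A/J), 15.3 (BALB/cJ) and 52.1 (C57BL/6J) at -22223 bp. In the same strain order, Capzb averaged 62.6, 42.4 and 102, and Tmem37 49.2, 36.5 and 79. Ubr4 averaged 162, 120 and 196, and Lgmn 137, 112 and 178. These points share libraries and depth, and the genes were picked from 60387 windows. Within Irak3, the intron 7 window correlated at 0.377 to 0.629 with the 6 other tested windows.

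Irak4, the kinase that starts the Myddosome cascade, was the only other member with a call. Its promoter at -12 bp held 185, 303 and 239 normalized tags in A/J, 219, 247 and 183 in BALB/cJ and 252, 261 and 251 in C57BL/6J, and no comparison was called (adjusted p 0.586 to 0.883). At +857 bp in intron 1, BALB/cJ held 95.4, 128 and 102, below all libraries of C57BL/6J (161, 182 and 221). A/J held 120, 217 and 205 and overlapped both. BALB/cJ against C57BL/6J gave -0.82 ± 0.25 (adjusted p = 0.0308), which is under the fold threshold. A/J against BALB/cJ gave 0.74 ± 0.25 (adjusted p = 0.115), and 0.71 with the replicate block (adjusted p = 0.00607).

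The call was a weak window in intron 10 of 11, at +21441 bp (chr15:94564601-94565601). It held 15.5, 17.8 and 18.8 normalized tags in A/J, 10.1, 11.4 and 5.11 in BALB/cJ and 16, 27.9 and 27.1 in C57BL/6J. BALB/cJ lay below the other strains in every library, and 24.9% of tested windows did not overlap between BALB/cJ and C57BL/6J. This comparison gave -1.50 ± 0.45 (adjusted p = 0.0309). The call was lost under 5 of 11 alternatives, including the DESeq2 Wald test (-1.47, adjusted p = 0.0672) and a scaling by total tags (-1.46, adjusted p = 0.0618). It was also lost without BALB/cJ replicate 1 (adjusted p = 0.0612), BALB/cJ replicate 3 (0.213) or C57BL/6J replicate 2 (0.0567), and it fell under the filter, and was not tested, without C57BL/6J replicate 3 or in a fit of 2 strains only. BALB/cJ had the lowest mean at all 5 tested Irak4 windows, and the sixth, at +13984 bp, had a mean of 5.11.

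This window came from the C57BL/6J list after LPS alone. Its central 300 bases are shown as the only called site outside Irak3 (chr15:94564951-94565250, mm10, plus strand). Capitals mark a match to AP-1 (TGANTCA) at base 94, which 17.1% of window centers hold.
Irak4 intron 10 center: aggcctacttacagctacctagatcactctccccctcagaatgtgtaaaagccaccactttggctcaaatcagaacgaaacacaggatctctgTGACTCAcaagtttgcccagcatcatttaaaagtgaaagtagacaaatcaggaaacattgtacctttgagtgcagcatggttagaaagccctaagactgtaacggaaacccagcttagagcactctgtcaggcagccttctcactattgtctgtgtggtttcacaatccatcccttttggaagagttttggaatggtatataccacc

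**Figure D2:**
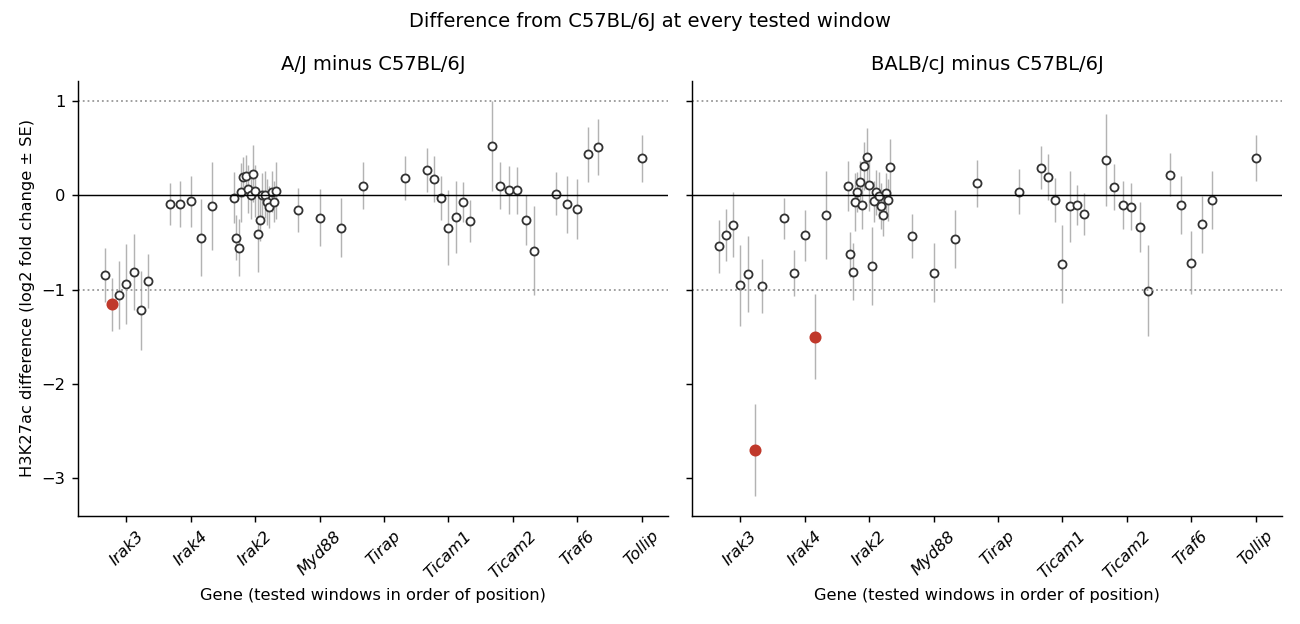
Log2 fold change of H3K27ac (y axis, bars are SE) for A/J minus C57BL/6J and BALB/cJ minus C57BL/6J at each of the 55 tested windows, by gene and in order of position (x axis). Filled points are called, and dotted lines mark a log2 fold change of 1 either way. The 7 Irak3 windows lie between -1.22 and -0.82 for A/J and between -2.70 and -0.31 for BALB/cJ, while most windows of the other genes scatter around 0.

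The remaining 7 genes had no called window in any comparison. Of their 43 tested windows, 1, 0 and 5 had an unadjusted p under 0.05 for A/J against BALB/cJ, A/J against C57BL/6J and BALB/cJ against C57BL/6J. Their lowest adjusted p-values were 0.208, 0.315 and 0.0913. The replicate block called 0 of them as well. At any fold, however, it gave edgeR adjusted p-values under 0.05 at some of them. Between BALB/cJ and C57BL/6J these included Irak2 at +1923 bp (0.0058), Myd88 at +4931 bp (0.0442) and the Myd88 promoter (0.0285). Between A/J and BALB/cJ the block gave 0.0461 at +54544 bp of Traf6. A miss of the threshold does not show equal levels, and single windows had intervals that reached past 1 on the log2 scale.

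Irak2, the kinase that sustains signaling after IRAK4 has acted, had 19 windows, all tested, and the single window with the highest level of the 9 genes, although its promoter ranked in the middle. That window, singled out after its values were seen, was at +22738 bp in intron 2 and averaged 445 (A/J), 443 (BALB/cJ) and 443 (C57BL/6J). The promoter held 189, 107 and 127 normalized tags in A/J, 176, 110 and 177 in BALB/cJ and 156, 93.1 and 181 in C57BL/6J, and the strains overlapped. The lowest p among its windows was at +1923 bp in intron 1, with 44.2, 71.2 and 103 in A/J, 51.5, 45.8 and 81.8 in BALB/cJ and 132, 83.8 and 105 in C57BL/6J. Here BALB/cJ against C57BL/6J gave -0.81 ± 0.30 (adjusted p = 0.0913).

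Myd88, the adaptor of most Toll-like receptors, had 3 windows. Its promoter held 200, 267 and 298 normalized tags in A/J, 160, 252 and 221 in BALB/cJ and 225, 324 and 301 in C57BL/6J. C57BL/6J had the highest and BALB/cJ the lowest mean, but the strains overlapped and no comparison was called (adjusted p 0.285 to 0.802). At +4931 bp, at the end of the gene, A/J held 40.5, 41.5 and 40.8, BALB/cJ 32.9, 18.3 and 27 and C57BL/6J 40.0, 62.9 and 45.3. BALB/cJ lay below both other strains there, with -0.82 ± 0.31 against C57BL/6J (adjusted p = 0.103).

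Tirap, the bridging adaptor that brings MyD88 to membrane receptors, had 2 overlapping windows, and its strains were nearly level. At +14 bp it held 102, 160 and 146 normalized tags in A/J, 106, 158 and 148 in BALB/cJ and 108, 102 and 157 in C57BL/6J. At +523 bp the values were 125, 184 and 168, then 122, 165 and 142, then 132, 107 and 168 in the same order. The 6 log2 fold changes lay between -0.02 and 0.18, and their 95% intervals between -0.52 and 0.65.

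Ticam1 encodes TRIF and Ticam2 encodes TRAM, the adaptors of the MyD88-independent branch. The Ticam1 promoter at -185 bp had 317, 202 and 279 normalized tags in A/J, 331, 174 and 301 in BALB/cJ and 258, 191 and 261 in C57BL/6J. Replicate 2 was the lowest library in every strain. At +2178 bp, its window of lowest p, levels were 10.2 to 34.6 in all libraries (adjusted p 0.318 to 0.783). Ticam2 held 122, 220 and 195 at +166 bp in A/J, 124, 185 and 164 in BALB/cJ and 183, 121 and 197 in C57BL/6J. At +9552 bp in its intron 2, BALB/cJ (11.8, 13.7 and 8.03) lay below C57BL/6J (14.7, 27.9 and 23.3), with -1.01 ± 0.48 and an adjusted p of 0.215. A/J held 11, 32.6 and 9.70 there.

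Traf6 is the ubiquitin ligase below the Myddosome. Its promoter held 144, 113 and 170 normalized tags in A/J, 164, 158 and 177 in BALB/cJ and 163, 107 and 154 in C57BL/6J. The window of lowest p, at +54544 bp, lies beyond the end of Traf6 and was assigned to it by distance alone. It held 82.5, 53.4 and 61.4 in A/J and 40.5, 48.1 and 35.1 in BALB/cJ, which did not overlap (0.74 ± 0.29, adjusted p = 0.208), and 65.3, 32.6 and 48.5 in C57BL/6J. Over all tested windows, 19.1% did not overlap between A/J and BALB/cJ. Of the 8 Traf6 windows, 5 were tested.

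Tollip, an adaptor that holds IRAK proteins in check, had 3 windows, and only that at -13 bp was tested. It held 126, 142 and 169 normalized tags in A/J, 105, 142 and 192 in BALB/cJ and 125, 112 and 99.5 in C57BL/6J. All C57BL/6J libraries were below all A/J libraries, which 22% of tested windows showed in either direction. A/J against C57BL/6J gave 0.39 ± 0.25 (adjusted p = 0.434).

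All windows are of equal length, so levels can be set side by side. At the start of the genes, means over the 9 libraries ran from Ticam1 (257 ± 56.7 SD), Myd88 (250 ± 53.3) and Irak4 (238 ± 37.7) through Ticam2 (168), Traf6 (149.9), Irak2 (146), Tollip (135) and Tirap (132) to Irak3 (101 ± 44.5). This order pools the strains, and within C57BL/6J the mean of Irak3 (141) was above those of Tirap (123) and Tollip (112). Of the 8 steps between neighbors in this order, only that from Irak4 to Ticam2 was larger than its spread and present in all 9 libraries (69.7 ± 34.2 SD). Irak3 was the gene whose place depended most on strain. Among 12556 tested promoter windows it stood at percentile 22.5 for A/J, 39.1 for BALB/cJ and 50.7 for C57BL/6J. In the same strain order Myd88 stood at 75.6, 69.1 and 82, Tollip at 52.5, 53.4 and 41.6, and Irak2 at 51.2, 55.7 and 51.5. The percentiles of Irak3 restate its promoter difference, whose call depended on single libraries.

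**Figure D3:**
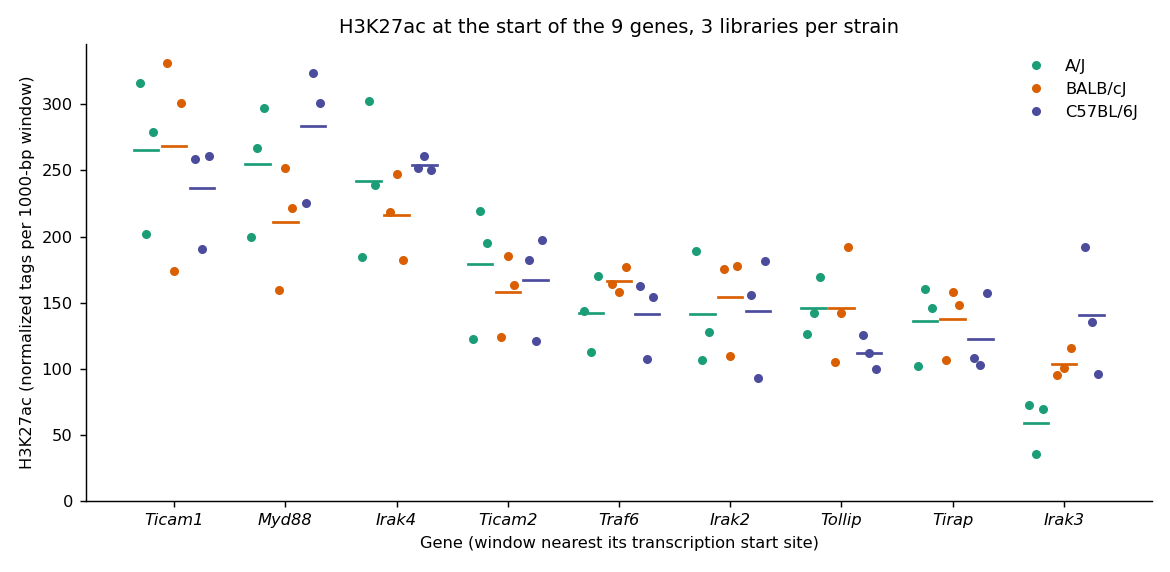
Normalized H3K27ac tags (y axis) in the window nearest the transcription start site of each gene (x axis, ordered by the mean of the 9 libraries). Points are libraries and short lines strain means. The A/J libraries of Irak3 (35.6 to 72.1) lie below both other strains, those of Tollip lie above C57BL/6J and the BALB/cJ libraries of Irak4 lie below C57BL/6J, while all other pairs of strains overlap.

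Other genes of the pathway, from receptors to NF-κB, were taken from a list of 55 genes, of which 54 had a window and 51 a tested one. Of their 445 tested windows, 12 (2.7%) were calls for A/J against BALB/cJ, 20 (4.49%) for A/J against C57BL/6J and 23 (5.17%) for BALB/cJ against C57BL/6J, beside 3.63%, 7.09% and 8.56% of all windows. The calls fell on 7, 10 and 12 genes. Most were higher in the first strain named, at 10 against 2 lower, 17 against 3 and 16 against 7 windows. Most calls against C57BL/6J were thus lower in C57BL/6J, unlike those at Irak3. The lowest adjusted p in both comparisons with C57BL/6J was at Tbk1, a kinase of the TRIF branch, at -4476 bp. It held 197, 149 and 263 normalized tags in C57BL/6J, against 22.1, 23.7 and 16.2 in A/J and 38.0, 41.2 and 28.5 in BALB/cJ (-3.37 ± 0.30, adjusted p = 1.13e-08, and -2.55 ± 0.28, adjusted p = 2.75e-07).

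Windows of 2 receptors were higher in A/J. Tlr5, the flagellin receptor, was higher than in BALB/cJ at -26199 bp (1.93 ± 0.27, adjusted p = 3.25e-05) and higher than in C57BL/6J at its start (2.18 ± 0.35, adjusted p = 0.0001). A window of Tlr4, the LPS receptor, at -35205 bp gave 1.78 ± 0.35 against C57BL/6J (adjusted p = 0.000988). BALB/cJ was lower than A/J near the NF-κB inhibitor Tnfaip3 (-787 bp, adjusted p = 0.00172), at Nfkb1 (adjusted p = 0.0128) and at Lbp, the LPS-binding protein (adjusted p = 0.00213), and lower than C57BL/6J at Lbp (adjusted p = 0.000268). Peli2, a ligase that acts on IRAK proteins, and Btk were higher in BALB/cJ than in C57BL/6J (2.95 ± 0.44 and 2.40 ± 0.43, adjusted p = 3.76e-05 and 0.000355). At the same Btk window A/J was also higher than C57BL/6J (2.14 ± 0.44, adjusted p = 0.00156).

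In CB6F1/J the alleles can be told apart only where a read spans a variant between BALB/cJ and C57BL/6J. Both alleles share the same nuclei. Of the 125 member regions, 124 held perfectly mapped tags and 17 held variant-spanning ones (13.6%, against 19.1% of all 217456 regions). Irak2, Irak4, Ticam1, Ticam2 and Tollip had 0 variant-spanning tags in 31, 7, 17, 13 and 8 regions. No member region passed the filter of the allele test, which 4467 regions passed and of which 292 were called (6.54%). That fit does not use the pairing of the alleles within a library. With the library as a block 0 regions were called by edgeR (782 at an unadjusted p under 0.05), the DESeq2 Wald test without the block called 378, and 56 were called without CB6F1/J replicate 3 and 96 without replicate 2. Summed into parental windows, 377 of 5234 were called (7.2%), and 154 with the block, and without the filter 1.31% were, with 0 member calls in each. No member window entered the test of the strain against the allele difference unless regions were summed or CB6F1/J replicate 1 was left out, when 1 did.

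**Figure D4:**
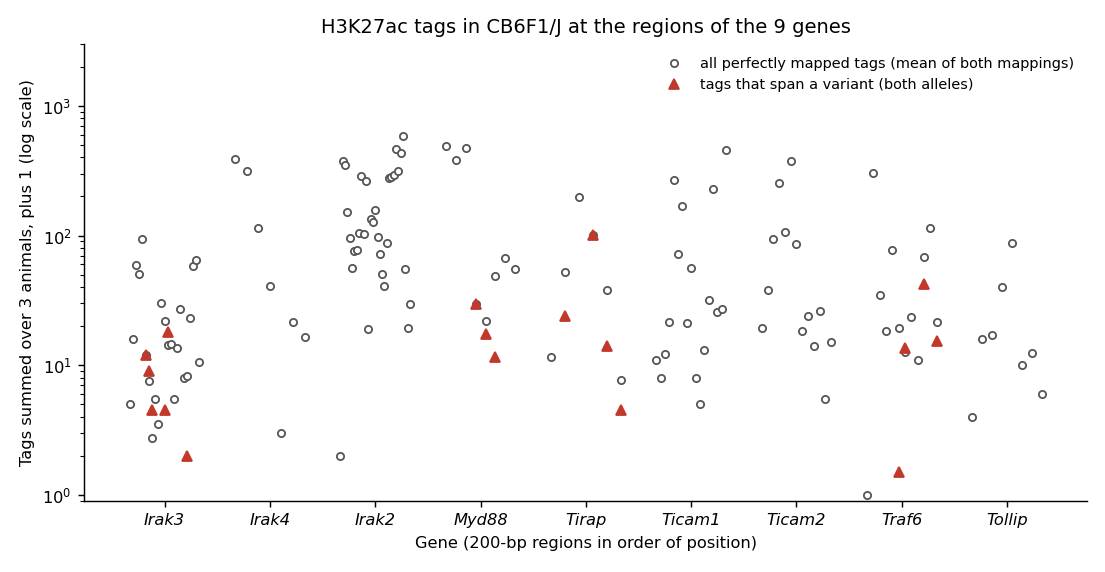
H3K27ac tags in CB6F1/J at the 125 regions of the 9 genes (x axis, in order of position), summed over 3 libraries on a log scale after adding 1 (y axis). Open circles are all perfectly mapped tags and triangles are variant-spanning tags of both alleles, which are present at 17 regions.

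The called Irak3 sites could not be read by allele. The region at +35547 bp in intron 7 held 22 perfectly mapped tags in either mapping and 0 that span a variant, and the region at +161 bp, inside the promoter window, held 93.8 on average and 0. The regions at -169 and -489 bp, which like the window at -346 bp that holds them are counted from the upstream start, also held 0 variant-spanning tags. Irak3 did hold 44 variant-spanning tags in 6 other regions, 8.5 from the BALB/cJ allele and 35.5 from the C57BL/6J allele. The C57BL/6J allele had more in each library, with 6.5 against 2, 24 against 2.5 and 5 against 4, and over all regions it held 51.2% of such tags. The region with the most, at +12115 bp in the intron 1 windows, had 0, 1.5 and 0 tags from the BALB/cJ allele and 1, 11.5 and 3 from the C57BL/6J allele. Few tags stand behind this, 3 libraries cannot give an exact paired p below 0.25, and no region was called when the filter was dropped (adjusted p 0.687 at +12115 bp).

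Tirap had the most variant-spanning tags of the members. At +603 bp they were 8, 20 and 17.5 on the BALB/cJ allele and 3.5, 37 and 14.5 on the C57BL/6J allele, and the order of the alleles differed between libraries. With regions summed into the parental window at +523 bp, BALB/cJ against C57BL/6J gave -0.11 ± 0.52 (adjusted p = 0.998) between alleles, and the strain difference minus the allele difference was 0.27 ± 0.50 (adjusted p = 0.901). Myd88 held 36 tags from the BALB/cJ and 19.5 from the C57BL/6J allele, of which 24 and 7.5 came from 1 library, and Traf6 held 30.5 and 38.5.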

How the data were processed

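H3K27ac ChIP–seq tags were analysed in 9 parental libraries, 7 ChIP inputs and 3 CB6F1/J libraries. The F1 inputs were not used here. According to the methods, the authors mapped reads with Bowtie2 to strain-specific genomes, shifted them to mm10 and counted raw tags with HOMER around merged ATAC-seq peaks. The deposited counts are whole in replicates 1 and 3. As deposited, replicate 2, the inputs and the F1 columns are expected counts in steps of 0.5, of unstated origin, and were rounded before each fit. F1 regions are listed as 200 bp wide, while the methods describe F1 counting in windows of 1000 bp, so the width behind the F1 tags is not certain. Versions of these tools are not given in the sources used here.

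After TMM scaling, windows whose mean normalized count exceeded 16 entered edgeR 4.0.16 (R 4.3.3, robust quasi-likelihood) in 1 fit of 9 libraries. Normalized tags are tags scaled to the mean effective library size. SE was taken as the size of the log2 fold change over the root of the F statistic. Intervals are 1.96 SE. DESeq2 1.42.0, other scalings, no filter, 2 strains, a replicate block and left-out libraries were the alternatives. The fit was also run on simulated counts with independent libraries, where changed windows were drawn from those well above the filter. At an adjusted p below 0.05, it found 30% of 2-fold and 96% of 4-fold changes between strains. Between alleles it found 18% and 92.8%. Many differences of 2-fold would thus go uncalled. Same-numbered libraries of different strains deviated together (r = 0.227 to 0.414 in 9 pairs, against at most 0.0629 in other pairs). The block is therefore given where it changes a call, and at some windows under the fold threshold. The correlation is a pattern in the data, since the labels do not say what the number marks. Replicates of a strain differed by more than counting noise. Promoters are from RefSeq and genomic sequence from GRCm38, and 90.3% of 16522 starts matched within 1 bp.

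The members, lists and rules were chosen with earlier results of these data known. Named were all members, with values for the window nearest the start, the window of lowest p over 3 strains and called windows, the 5 windows most like Irak3, and the 4 lowest adjusted p of the pathway list per comparison. All Irak3 windows are described too.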

Additional observations from a re-analysis of the deposited data

How the results depend on the processing

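Left-out libraries, scaling, the filter and the block moved the few calls. Between A/J and BALB/cJ the count of called member windows was 0, and 1 with the replicate block. Between A/J and C57BL/6J it was 1, with 4 under the block, 3 with replicates 1 and 3 only (an alternative added after seeing the data), and 0 to 3 when 1 library was left out. Between BALB/cJ and C57BL/6J it was 2, with 1 under total tags only, 1 by the DESeq2 Wald test and 1 with 2 strains only, and 1 to 2 when 1 library was left out. In 20 pairs of window and comparison, 232 of 251 alternative values kept direction and call status, 7 lost the call, 12 gained one and 0 turned direction. Most of these pairs had no call in the main fit, so a kept status there means that they stayed uncalled. The promoter call of Irak3 between A/J and C57BL/6J was kept in 11 of 13 alternatives. At +21441 bp of Irak4, the call between BALB/cJ and C57BL/6J was kept in 6 of 11. The Irak3 intron 7 call between BALB/cJ and C57BL/6J was kept in 12 of 12, with log2 fold changes of -3.12 to -2.44. Without the filter, +10198 bp of Irak3 was also called between BALB/cJ and C57BL/6J. Beyond the values given, the block changed no call among these windows. The causes were not tested. Between alleles, member regions called were 0 under every alternative, with at most 16 regions tested, so variant-spanning depth sets the limit there.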
